A study of Mus musculus with 48 samples.

Results

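The response to 5 µM pizotifen was measured in STHdhQ111 cells by comparing 3 pizotifen samples with 3 vehicle samples, chosen by their labels, which are 6 of the 48 RNA-Seq samples of the series. 3 further samples of the same line, given 0.5 nM haloperidol, served as a second control, because they filled the same collection day and time slots as the pizotifen samples, whereas the vehicle samples shared the days and not the times. Haloperidol, like pizotifen, was among the compounds that the authors found to protect these cells from death, so this control was itself a treatment. STHdhQ111 is a conditionally immortalized mouse striatal progenitor line, homozygous for a knock-in of mutant huntingtin, and every pizotifen, vehicle and haloperidol sample came from that line, kept without serum for 24 h with the compound or with the DMSO vehicle alone. STHdhQ7, the wild-type line of the same origin, was represented by 3 vehicle samples. Nothing in the labels says that the samples of a group came from separate cultures, so the p-values measure only the spread between these samples.

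Pizotifen is a tricyclic antagonist of serotonin and histamine receptors that was developed to prevent migraine. Cells sense their sterol supply through SREBP transcription factors, which are released from the endoplasmic reticulum when membrane sterol is low and switch on cholesterol synthesis. The integrated stress response is another sensing system, in which phosphorylation of the initiation factor eIF2 raises translation of the transcription factor ATF4, and ATF4 in turn switches on genes of amino acid synthesis, uptake and tRNA charging.

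Levels are given in the deposited unit, a log2 normalized abundance. A difference of 1 would be a doubling on a plain log2 scale. The transformation is not named, however, and may shrink differences, above all those of low genes. Of 18178 genes with a symbol, 13409 with a mean of at least 1 over all samples were tested. A gene is said to have risen or fallen only where limma, fitted over all 48 samples with the collection day, gave a Benjamini-Hochberg adjusted p under 0.05 against vehicle and also against haloperidol, unless 1 comparison is named. Fold changes are log2 differences with their standard error (SE), and each group has 3 samples. The read depth of the samples is unknown, since the values are not counts. In a bulk sample, fewer cells of a type and less RNA per cell cannot be told apart.

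The labelled cell type was checked against marker genes. Of 10 neural progenitor markers 8 passed the filter on low values. Vim, an intermediate filament of progenitor and mesenchymal cells, had a mean of 15.4 under vehicle. The progenitor markers Nes, Sox2 and Pax6 were low, with means of 4.96, 4.81 and 2.81. Only 2 of 8 markers of striatal medium spiny neurons passed the filter on low values. Of 8 fibroblast and mesenchyme markers 6 passed that filter. The collagen Col1a1 was high, at 14.6, but the actin gene Acta2 was between 4.56 and 4.58 in the vehicle samples. The leukocyte gene Ptprc was at 10.6, while the microglial markers Aif1, Cx3cr1 and P2ry12 lay below 0 on the log2 scale.

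1 library stood apart. Haloperidol replicate 2 held the highest value among the 45 STHdhQ111 libraries for 24 of the 26 genes that were over 3 log2 units higher in STHdhQ7 than in STHdhQ111 cells under vehicle. Acta2, smooth muscle actin, was at 4.75, 8.53 and 5.42 in the haloperidol samples, at most 4.50 in the pizotifen samples and between 10.4 and 11.8 in STHdhQ7. The retinoic acid binding protein gene Crabp1 was at 3.50, 6.76 and 4.05 in the same haloperidol samples. Counts are therefore also given without this library, and a list whose count has no second value kept the same number of calls without it.

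Pizotifen changed the expression of a wide set of genes by small amounts. Against vehicle 1188 genes were called higher (8.86% of those tested) and 1216 lower (9.07%), and against haloperidol 1018 were higher (7.59%) and 955 lower (7.12%). In the same direction against both controls, 859 genes rose (6.41%) and 744 fell (5.55%), and no gene was called in opposite directions. These 1603 genes were 66.7% of the vehicle calls and 81.2% of the haloperidol calls, but the comparisons share the pizotifen samples. Haloperidol against vehicle gave 0 calls in limma, with 397 genes at an unadjusted p under 0.05, and quantile normalization also gave 0. The median size of a call against vehicle was 0.26, and 11 of the called genes changed by more than 1. The median difference over all genes tested was -0.0047 against vehicle and -0.0030 against haloperidol.

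These counts depended on single libraries. Leaving out vehicle replicate 1 lowered the count against vehicle from 2404 to 1376, and leaving out haloperidol replicate 3 lowered that against haloperidol from 1973 to 1275. Without haloperidol replicate 2, 735 genes rose (5.48%) and 598 fell (4.46%) against both controls. Of the genes named below, 110 were called against both controls, and 77 of them stayed called whichever of the 9 libraries was left out. All 3 pizotifen samples lay above all 6 control samples in 13.0% of the genes tested and below them in 13.3%.

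The genes with the largest rises were led by targets of the integrated stress response. Chac1, which degrades glutathione, was at 7.12, 7.34 and 7.27 under vehicle, 7.30, 7.47 and 7.17 under haloperidol and 8.74, 8.84 and 8.77 under pizotifen. The difference from vehicle was 1.54 ± 0.14 (SE, adjusted p = 3.58e-09, limma), and that from haloperidol was 1.47 (adjusted p = 1.69e-08, limma). Chac1 lies at chr2:119351229-119354381 (GRCm38, plus strand) and overlaps no other annotated gene. Slc7a11, the light chain of the cystine importer, was at 6.24, 6.25 and 6.06 under vehicle and at 7.55, 7.82 and 7.58 under pizotifen, a difference of 1.47 ± 0.23 (SE, adjusted p = 2.09e-05, limma). Its haloperidol values were 6.18, 6.32 and 5.92, so both controls lay well below every pizotifen sample.

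Trib3, a pseudokinase that restrains ATF4, rose by 1.51 ± 0.21 against vehicle and 1.37 against haloperidol. Aldh1l2, a mitochondrial enzyme of folate metabolism, rose by 1.21 ± 0.15 and 1.20. Atf3, a stress-induced transcription factor, rose by 1.05 ± 0.14 and 0.99, and Asns, asparagine synthetase, by 0.96 ± 0.11 and 0.98. In all of these genes the pizotifen samples lay above every vehicle and haloperidol sample, which the rule for naming them required. The others of the 10 largest rises were the cell adhesion gene Cdsn (1.27), the cyclooxygenase gene Ptgs2 (1.19), the transcriptional regulator gene Ifrd1 (1.08) and the glycolytic enzyme gene Hk2 (0.96), each value against vehicle. The 10 rises, like the 10 falls below, were ranked by the mean of the differences from vehicle and from haloperidol.

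The largest fall was that of Cyp26b1, which breaks down retinoic acid. Its level was 8.30, 8.18 and 8.30 under vehicle, 8.46, 8.24 and 8.43 under haloperidol and 6.86, 7.30 and 6.92 under pizotifen, a difference of -1.24 ± 0.17 from vehicle (SE, adjusted p = 3.24e-06, limma). It lies at chr6:84571414-84593908 (GRCm38, minus strand). Peg10, an imprinted gene derived from a retrotransposon, was at 12.46, 12.07 and 12.14 under vehicle and at 11.38, 11.48 and 11.49 under pizotifen, a difference of -0.78 ± 0.15. Of the 12 imprinted genes tested, Peg10 was the 1 that fell, beside 5.55% of all genes tested, and none rose. Their median was 0.03 against vehicle and -0.03 against haloperidol. Gstm1, a glutathione transferase, fell by 0.78 on the log2 scale, and the matrix genes Prelp, Col3a1 and Sned1 fell by 0.80, 0.67 and 0.68 against vehicle. The others of the 10 largest falls were the aminopeptidase gene Enpep (-0.77), the transcription factor gene Atoh8 (-0.72), the interferon-induced GTPase gene Gbp2 (-0.71) and St8sia2 (-0.56 against vehicle and -0.84 against haloperidol), which makes polysialic acid. All 20 genes were also called without haloperidol replicate 2, and the call of Gbp2 ended when any 1 of 4 other libraries was left out (pizotifen replicates 1 and 3, vehicle replicate 1 and haloperidol replicate 3; adjusted p from 0.0628 to 0.0929, limma).

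**Figure D1:**
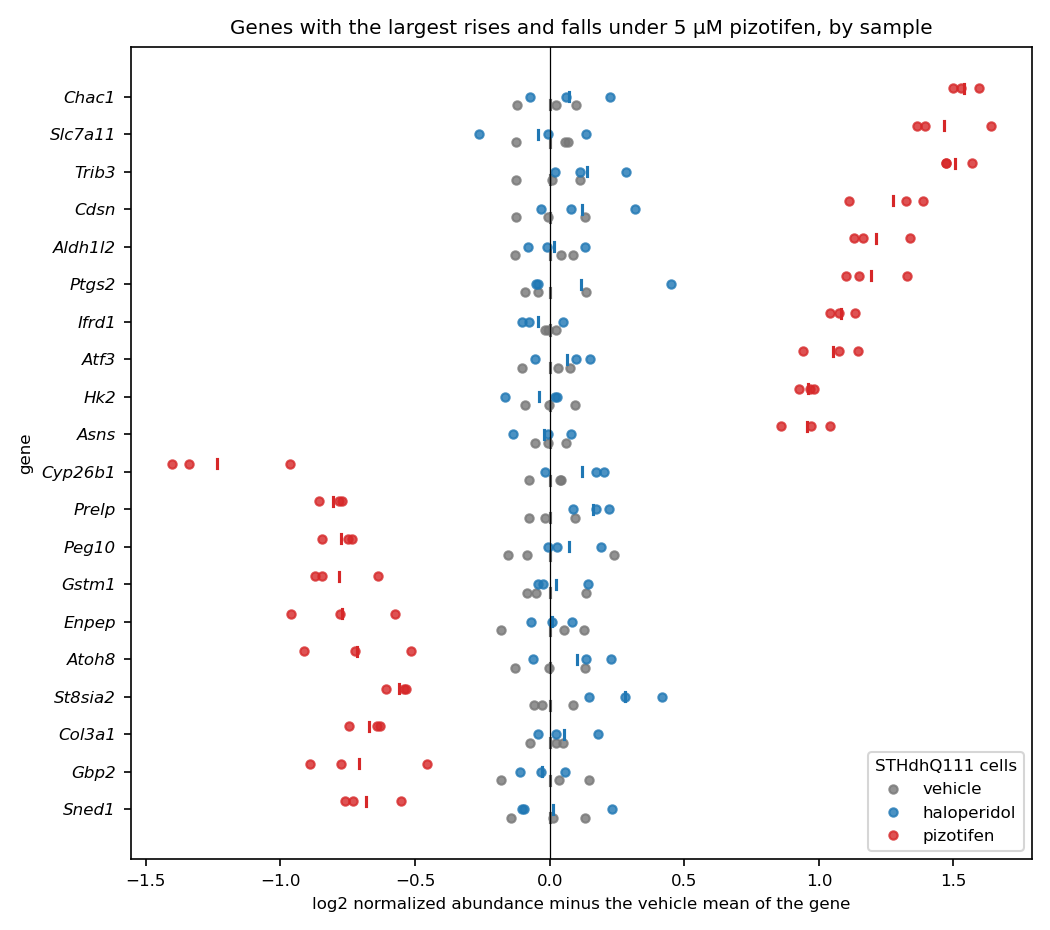
Each point is 1 sample, placed by its log2 normalized abundance minus the vehicle mean of that gene, and the ticks are group means of 3 samples. Pizotifen points of the 10 rises and 10 falls lie apart from all vehicle and haloperidol points, with Chac1 about 1.54 above the vehicle mean and Cyp26b1 about 1.24 below it.

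The genes called against vehicle that differed most between the controls were looked at apart. The processed copy of a nuclear transport factor gene, listed as c(Nutf2-ps2, Nutf2-ps1), was at 7.01, 6.24 and 5.98 under vehicle, 8.26, 8.35 and 7.87 under haloperidol and 7.29, 8.21 and 8.06 under pizotifen. Its difference was 1.44 from vehicle and -0.30 from haloperidol. The ribosomal protein pseudogene Rps15a-ps5 differed by 1.34 and -0.04, and the mitochondrial ND4L by 0.58 and 0.19. Reads of such copies may be shared with their parent genes, and those of ND4L with the overlapping ND4, so the values are uncertain. The gene listed as Akap2 (ENSMUSG00000089945) is annotated as Pakap and overlaps Palm2 and a separate Akap2 gene on the same strand. Its differences were -0.94 and -0.57, of which the one against vehicle was called.

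Every enzyme examined here of the path from acetyl-CoA to cholesterol rose. All 7 genes of the mevalonate branch and all 12 from squalene to cholesterol passed the test against both controls, also without haloperidol replicate 2. Of all genes tested 6.41% rose, or 5.48% without that library. The median difference from vehicle was 0.62 in the mevalonate branch and 0.51 in the later enzymes, beside -0.0047 over all genes tested, and the 19 single differences ran from 0.36 to 0.81. Against haloperidol the medians were 0.60 and 0.49. Haloperidol itself differed from vehicle by medians of -0.03 and 0.04.

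Mvd, which makes isopentenyl diphosphate, was at 9.83, 9.89 and 9.99 under vehicle, 9.93, 9.91 and 9.78 under haloperidol and 10.80, 10.53 and 10.81 under pizotifen. The difference from vehicle was 0.81 ± 0.10 (SE, adjusted p = 1.28e-06, limma). Nsdhl, which removes methyl groups from the sterol ring, was at 9.60, 9.67 and 9.71 under vehicle and at 10.65, 10.27 and 10.49 under pizotifen, a difference of 0.81 ± 0.09 (SE, adjusted p = 1.23e-07, limma). Lss, which closes the ring, and Cyp51, which removes its first methyl group, rose by 0.75 and 0.79. The thiolase Acat2, at the head of the path, rose by 0.74. Pizotifen replicate 2 was the lowest of the pizotifen samples in all 19 enzymes and still lay above all 6 control samples in each. Over all genes tested, the pizotifen samples lay above all controls in 13.0%.

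Of 10 genes of sterol sensing and transport, 4 rose and none fell, beside 6.41% and 5.55% of all genes tested. Their median was 0.10 against vehicle and 0.11 against haloperidol. Insig1, which holds SREBP in the endoplasmic reticulum and is itself an SREBP target, was at 11.99, 12.14 and 12.04 under vehicle and at 12.86, 12.57 and 12.87 under pizotifen, a difference of 0.71 ± 0.10. Tmem97, the sigma-2 receptor, which binds the cholesterol exporter Npc1 of the lysosome, rose by 0.63 ± 0.08, Npc1 by 0.35 and the sterol carrier Stard4 by 0.37. Srebf2, the gene of SREBP-2, was not called (0.10 ± 0.07 against vehicle, adjusted p = 0.331, limma), nor was Srebf1. Without pizotifen replicate 1 the call of Npc1 against haloperidol ended (adjusted p = 0.0557, limma). Mylip, a ubiquitin ligase gene, was lower against vehicle by 0.34 and not called against haloperidol (-0.28, adjusted p = 0.0644, limma).

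Of 6 genes under the liver X receptor or of sterol storage, the cholesterol-esterifying enzyme gene Soat1 rose (0.34 ± 0.07) and no other was called, with a median of -0.12 and -0.10. The exporter gene Abca1 was at 10.03, 9.65 and 9.63 under vehicle and at 9.36, 9.54 and 9.73 under pizotifen, so the groups overlapped. In fatty acid synthesis and desaturation, 10 of 12 genes rose, with a median of 0.33 against vehicle and 0.38 against haloperidol. Beside both lists of this paragraph, 6.41% of all genes tested rose. The desaturase genes Scd1 and Scd2 rose by 0.48 and 0.45, the elongase gene Elovl6 by 0.48, and the fatty acid synthase gene Fasn by 0.34, though without pizotifen replicate 1 Fasn was not called against vehicle (0.24, adjusted p = 0.0626, limma). Acaca, the first committed enzyme of the path, was not called (-0.05 ± 0.07).

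**Figure D2:**
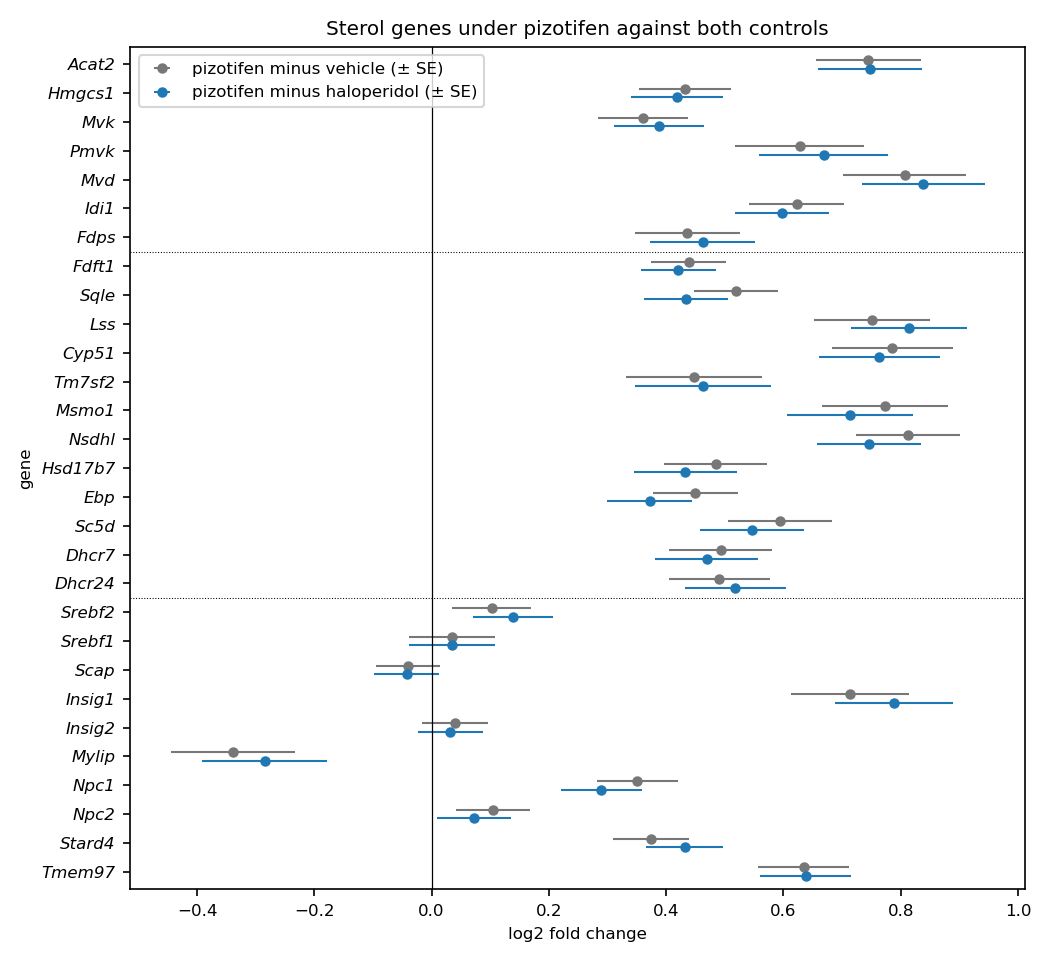
Each row is 1 gene, with the log2 difference of pizotifen from vehicle in grey and from haloperidol in blue, and bars of 1 SE from limma with 3 samples a group. The 19 enzymes above the lower dotted line lie between 0.36 and 0.84 in both comparisons, while Srebf2 is at 0.10 and Mylip at -0.34 against vehicle.

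Promoter sequences are shown for genes whose lists rose together, so that the element known for each list can be seen in its place. They are the 250 bases before the RefSeq start of the gene (GRCm38.p6), written 5' to 3' on the strand of the gene. The capitals mark matches, on either strand, to the letters TCACNCCAC in the sterol gene and TGATGNAA in the stress response genes, which stand for the sterol regulatory element and the composite site of ATF4 with C/EBP proteins. Hmgcs1, which makes the precursor of mevalonate and rose by 0.43, is at chr13:119690101-119690350 (plus strand), Chac1 at chr2:119350992-119351241 (plus), Asns at chr6:7693210-7693459 (minus) and Slc7a11 at chr3:50443614-50443863 (minus).
Hmgcs1: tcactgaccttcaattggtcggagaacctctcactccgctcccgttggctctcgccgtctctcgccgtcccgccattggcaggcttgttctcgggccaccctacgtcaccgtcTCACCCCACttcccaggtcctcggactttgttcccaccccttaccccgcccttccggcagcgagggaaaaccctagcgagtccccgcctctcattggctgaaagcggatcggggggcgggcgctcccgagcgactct
Chac1: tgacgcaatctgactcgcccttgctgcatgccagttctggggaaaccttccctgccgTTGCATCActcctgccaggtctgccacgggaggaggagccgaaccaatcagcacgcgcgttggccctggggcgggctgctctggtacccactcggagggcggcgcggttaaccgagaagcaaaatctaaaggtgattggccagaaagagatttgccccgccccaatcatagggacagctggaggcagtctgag
Asns: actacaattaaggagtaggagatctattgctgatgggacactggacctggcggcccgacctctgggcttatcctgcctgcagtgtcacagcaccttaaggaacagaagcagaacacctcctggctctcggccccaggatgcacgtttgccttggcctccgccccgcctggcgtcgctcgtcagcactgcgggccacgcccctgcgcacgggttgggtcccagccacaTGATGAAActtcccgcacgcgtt
Slc7a11: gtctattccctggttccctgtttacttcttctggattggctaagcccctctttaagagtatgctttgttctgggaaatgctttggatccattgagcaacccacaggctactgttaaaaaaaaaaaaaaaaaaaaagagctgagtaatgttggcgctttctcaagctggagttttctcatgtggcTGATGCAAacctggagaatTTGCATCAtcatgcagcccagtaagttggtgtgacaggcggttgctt

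TCACNCCAC was present in 1.22% of the 27025 gene symbols with a promoter, a symbol counting where any of its promoters held a match. It was present in 1 of the 6 mevalonate genes with a promoter, Hmgcs1. It was found in 0 of 9 genes from squalene to cholesterol, 0 of 8 of sterol sensing and uptake and 0 of 9 of fatty acid synthesis. TGATGNAA was present in 3.91% of all symbols with a promoter. It was found in 5 of 15 integrated stress response regulators (Atf3, Nupr1, Chac1, Vldlr and Fgf21), in 3 of 7 asparagine, proline and cysteine enzymes (Asns, Pycr1 and Got1) and in 3 of 12 tRNA synthetases (Aars, Gars and Tars). Of 10 serine and one-carbon enzymes 0 held it, and of 7 amino acid transporters 1 did. That gene, Slc7a11, held 2 matches, 58 and 39 bases before its start. Among all genes that rose and had a promoter, 24 of 647 held TGATGNAA (3.71%), beside 246 of 10081 genes tested (2.44%). A match describes the letters of this window and does not show that a factor bound there.

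Of 16 regulators and markers of the integrated stress response, 14 rose and none fell, beside 6.41% and 5.55% of all genes tested. Their median was 0.61 against vehicle and 0.56 against haloperidol. Atf4 was at 10.81, 10.95 and 10.97 under vehicle, 10.98, 10.97 and 10.98 under haloperidol and 11.87, 11.82 and 11.86 under pizotifen, a difference of 0.94 ± 0.09 (SE, adjusted p = 5.17e-09, limma). Ddit3, the gene of CHOP, rose by 0.72 ± 0.12, from 8.99, 9.03 and 9.08 to 9.85, 9.69 and 9.71. The groups did not overlap in either gene.
The lipoprotein receptor gene Vldlr was at 8.35, 8.25 and 8.28 under vehicle, 8.31, 8.86 and 8.23 under haloperidol and 9.00, 8.90 and 9.09 under pizotifen. Its high haloperidol value was that of replicate 2, and the difference from haloperidol was 0.53 with that library and 0.73 without it. The hormone gene Fgf21 stayed at a low level, 3.11, 3.03 and 3.10 under vehicle and 3.60, 3.46 and 3.78 under pizotifen, and rose by 0.53 ± 0.07. Ddit4, an inhibitor of mTORC1, was not called (0.19 ± 0.08 against vehicle, adjusted p = 0.0984, limma). Cebpb, a partner of ATF4, was called with all libraries and not without haloperidol replicate 2, which left 13 genes.

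Enzymes that make serine and glycine and carry one-carbon units through mitochondria rose together. Of 12 genes, 8 rose and none fell, beside 6.41% and 5.55% of all genes tested. Their median was 0.41 against vehicle and 0.44 against haloperidol. Psph, the last step of serine synthesis, was at 8.52, 8.57 and 8.62 under vehicle and at 9.28, 9.49 and 9.41 under pizotifen, a difference of 0.82 ± 0.11. The mitochondrial dehydrogenase gene Mthfd2 was at 9.05, 9.05 and 9.07 under vehicle and at 9.86, 9.91 and 9.83 under pizotifen, a difference of 0.81 ± 0.11. Psat1 and Shmt2, which make phosphoserine and glycine, rose by 0.58 and 0.60, and Phgdh, the first step of serine synthesis, by 0.34. The Phgdh call ended without vehicle replicate 1 (adjusted p = 0.0550, limma) and without haloperidol replicate 3 (adjusted p = 0.0754, limma). The cytosolic enzymes Shmt1 (0.06) and Mthfd1 (0.07) were not called.

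Of 10 enzymes of asparagine, proline and cysteine metabolism, 6 rose and none fell, with a median of 0.42 against vehicle and 0.44 against haloperidol. Pycr1, the mitochondrial enzyme that completes proline, was at 6.48, 6.46 and 6.63 under vehicle and at 7.24, 7.43 and 7.42 under pizotifen, a difference of 0.84 ± 0.10. Cth, which makes cysteine from cystathionine, rose by 0.57 ± 0.16, and was not called against vehicle without pizotifen replicate 2 (0.49, adjusted p = 0.0580, limma). Of 11 amino acid transporters tested, 8 rose and none fell, with a median of 0.50 and 0.43. Beside both lists of this paragraph, 6.41% of all genes tested rose and 5.55% fell. The leucine importer gene Slc7a5 and its partner Slc3a2 rose by 0.66 and 0.59, and the arginine importer gene Slc7a1 by 0.70. Slc3a2 was not called against haloperidol without pizotifen replicate 1 or without haloperidol replicate 3 (adjusted p = 0.0550 and 0.0776, limma).

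Of 20 cytosolic tRNA synthetases, 14 rose and none fell, beside 6.41% and 5.55% of all genes tested. Their median was 0.35 against vehicle and 0.36 against haloperidol. Aars, the alanyl-tRNA synthetase gene, was at 12.47, 12.43 and 12.44 under vehicle, 12.44, 12.44 and 12.30 under haloperidol and 12.92, 12.79 and 12.77 under pizotifen, a difference of 0.38 ± 0.09. The groups did not overlap. Without haloperidol replicate 2, 13 rose, since the arginyl-tRNA synthetase gene Rars was no longer called.

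**Figure D3:**
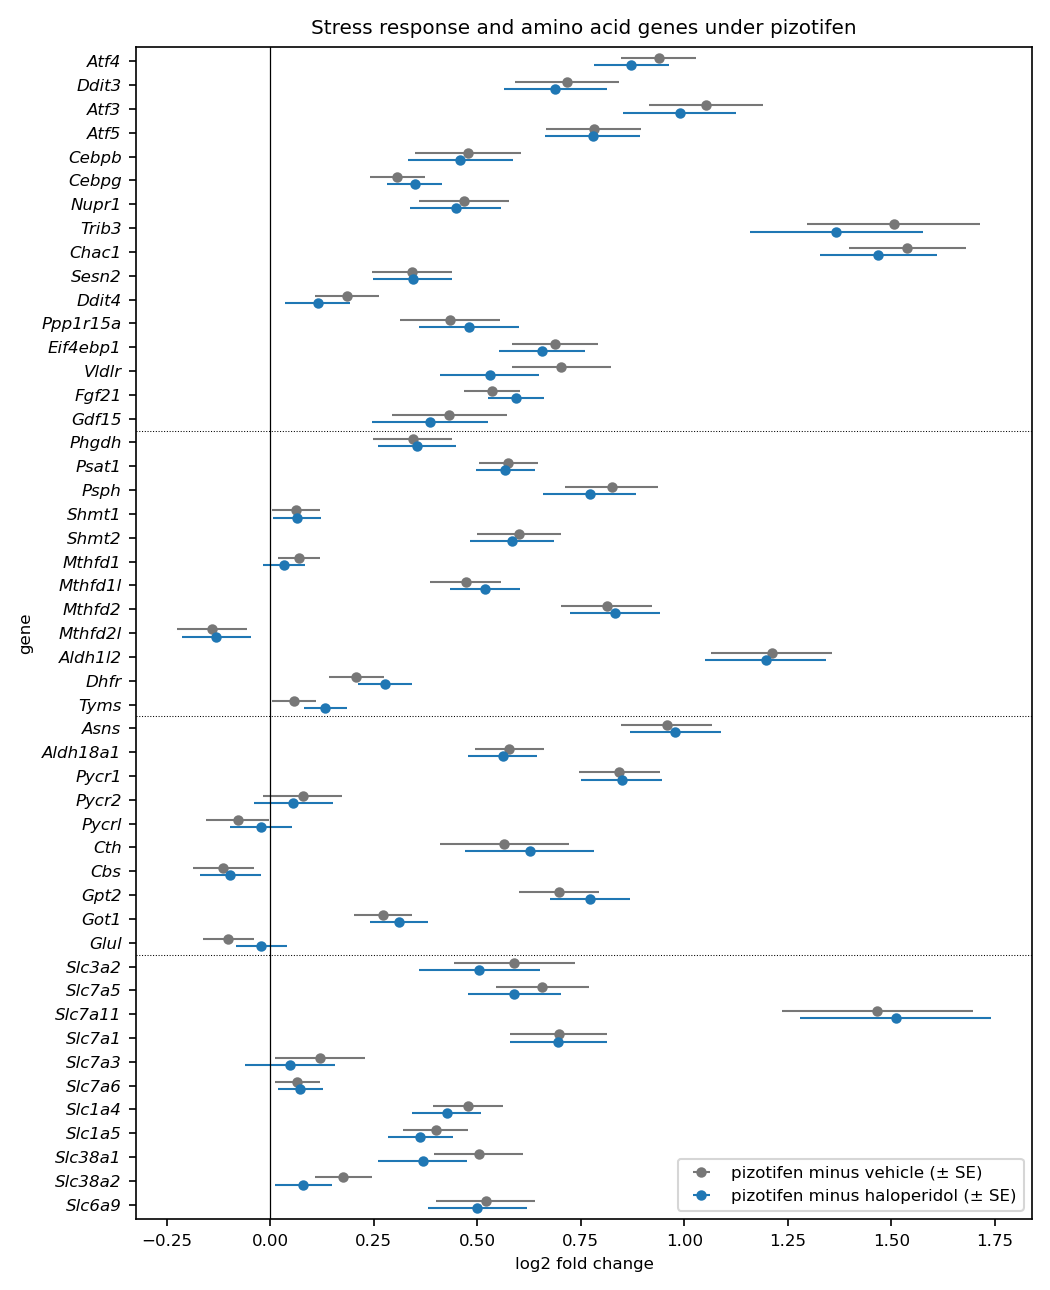
Each row is 1 gene, with the log2 difference of pizotifen from vehicle in grey and from haloperidol in blue, and bars of 1 SE from limma with 3 samples a group; dotted lines divide regulators, serine and one-carbon enzymes, other amino acid enzymes and transporters. Chac1 (1.54), Trib3 (1.51) and Slc7a11 (1.47) are the farthest to the right against vehicle, and the 4 lists have medians of 0.61, 0.41, 0.42 and 0.50.

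Most genes listed for protein folding and quality control in the endoplasmic reticulum rose. Beside chaperones and folding enzymes, this list of 18 genes holds the regulator Xbp1 and genes of protein breakdown. Of the 18, 15 were higher than vehicle and 12 rose against both controls. Their median was 0.30 against vehicle and 0.24 against haloperidol. Hspa5, the gene of BiP, was at 12.66, 12.71 and 12.71 under vehicle, 12.73, 12.85 and 12.70 under haloperidol and 13.34, 13.23 and 13.23 under pizotifen, a difference of 0.58 ± 0.08. Hsp90b1, the gene of GRP94, rose by 0.46, Herpud1, which serves protein breakdown at the endoplasmic reticulum, by 0.40, and the co-chaperone gene Dnajb9 by 0.38. Creld2 was called against vehicle (0.22) and not against haloperidol (0.20, adjusted p = 0.0528, limma). Of 14 heat shock genes, whose products work mostly in the cytosol, 2 rose, the small heat shock protein gene Hspb8 (0.23 ± 0.07) and Hspd1 (0.30 ± 0.07), a chaperonin of mitochondria. These calls ended with 4 and 3 of the 9 libraries left out in turn, none of them haloperidol replicate 2. The median was 0.02 in both comparisons, and the heat shock protein gene Hspa1b was not called (-0.18 ± 0.09). Beside the counts of this paragraph, 8.86% of all genes tested were higher than vehicle and 6.41% rose.

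The promoters of Hspa5 and of Gla, an acid hydrolase that rose, are shown for the letters of the endoplasmic reticulum stress element, CCAAT followed by CCACG with 9 bases between them, and of the element bound by TFEB, TCACGTGA, searched on both strands. They are the 250 bases before the RefSeq start (GRCm38.p6), Hspa5 at chr2:34771840-34772089 (plus strand) and Gla at chrX:134601006-134601255 (minus strand), with matches in capitals.
Hspa5: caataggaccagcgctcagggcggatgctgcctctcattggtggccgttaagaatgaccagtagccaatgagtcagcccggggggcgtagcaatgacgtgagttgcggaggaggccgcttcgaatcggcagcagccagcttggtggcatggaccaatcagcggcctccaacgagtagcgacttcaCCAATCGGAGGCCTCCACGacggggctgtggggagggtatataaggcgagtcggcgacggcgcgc
Gla: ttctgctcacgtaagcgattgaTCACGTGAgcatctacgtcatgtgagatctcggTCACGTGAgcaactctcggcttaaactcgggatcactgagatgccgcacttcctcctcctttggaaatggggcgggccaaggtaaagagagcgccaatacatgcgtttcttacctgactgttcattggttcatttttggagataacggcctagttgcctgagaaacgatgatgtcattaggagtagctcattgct

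The first motif was present in 0.13% of all symbols with a promoter. It was in 7 of the 16 genes of the endoplasmic reticulum list with a promoter. The second was present in 0.907% of all symbols and in 5 of 25 lysosomal genes. Of the 10081 genes tested that had a promoter, 14 held the first (0.139%) and 169 the second (1.68%). The second was also in 1 of 11 vacuolar ATPase genes, 2 of 12 tRNA synthetases and 0 of 10 genes of the TFEB list. No match says only that these letters are absent from this window.

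Lysosomal genes rose in part. Of 32 hydrolases and membrane proteins, 16 were higher than vehicle, 11 rose against both controls and none fell. Beside these counts, 8.86% of all genes tested were higher than vehicle, 6.41% rose and 5.55% fell. The median of the list was 0.18 against vehicle and 0.14 against haloperidol. Gla, alpha-galactosidase, was at 8.88, 8.81 and 8.84 under vehicle, 8.78, 8.82 and 8.77 under haloperidol and 9.37, 9.29 and 9.40 under pizotifen, a difference of 0.51 ± 0.06 (SE, adjusted p = 8.06e-07, limma). Its groups did not overlap. The protease gene Ctsd rose by 0.46, the calcium channel gene Mcoln1 by 0.26 and the membrane protein gene Lamp1 by 0.24. Leaving out any 1 of 5 libraries (pizotifen replicates 1 to 3, haloperidol replicates 1 and 3) ended the call of Lamp1, and 2 of these, pizotifen replicate 1 and haloperidol replicate 1, ended that of Mcoln1.

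Of 15 subunits of the vacuolar ATPase, the proton pump that acidifies lysosomes, 9 rose and none fell, with a median of 0.24 and 0.21. Atp6v1h, a regulatory subunit, was at 10.05, 10.10 and 10.10 under vehicle and at 10.36, 10.37 and 10.40 under pizotifen. Of 10 genes of the TFEB family and the folliculin pathway, 5 rose, with a median of 0.19 and 0.17. Rragd, a GTPase that recruits mTORC1 to lysosomes, rose by 0.42 ± 0.09, with an adjusted p of 0.0544 (limma) against haloperidol without haloperidol replicate 1, and Flcn, the gene of folliculin, was not called (0.17 ± 0.07, adjusted p = 0.0636, limma). Without haloperidol replicate 2 these counts were 10 lysosomal genes, 8 pump subunits and 4 of the TFEB list. The share of all genes tested that rose was 6.41%, or 5.48% without that library.

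Few core autophagy genes were called. Of 32 genes, 4 rose and 3 fell, beside 6.41% and 5.55% of all genes tested, with a median of 0.05 against vehicle and 0.06 against haloperidol. Bnip3, a mitophagy receptor, was at 8.65, 8.68 and 8.68 under vehicle, 8.68, 8.55 and 8.70 under haloperidol and 8.85, 9.06 and 9.56 under pizotifen, so pizotifen replicate 3 was the highest. Bnip3l rose by 0.19, the cargo receptor gene Sqstm1 by 0.28 and Gabarapl1, which couples to autophagosome membranes, by 0.19. The initiating kinase genes Ulk1 and Ulk2 fell by 0.22 and 0.17 on the log2 scale, and Atg2a, a lipid transfer protein gene, by 0.27. Map1lc3b, the gene of LC3B, was at 10.80, 10.90 and 11.00 under vehicle and at 10.92, 10.84 and 10.91 under pizotifen, and the groups overlapped. Without haloperidol replicate 2 the calls were 2 rises and 2 falls, shares near the 5.48% and 4.46% of all genes in that setting, since Sqstm1, Gabarapl1 and Atg2a were no longer called. Each of the other 4 calls also ended without at least 1 library. Bnip3 and Bnip3l rested on pizotifen replicate 3, without which their adjusted p against vehicle was 0.117 and 0.0850 (limma), and the calls of Ulk1 and Ulk2 each ended without haloperidol replicate 1, among others.

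**Figure D4:**
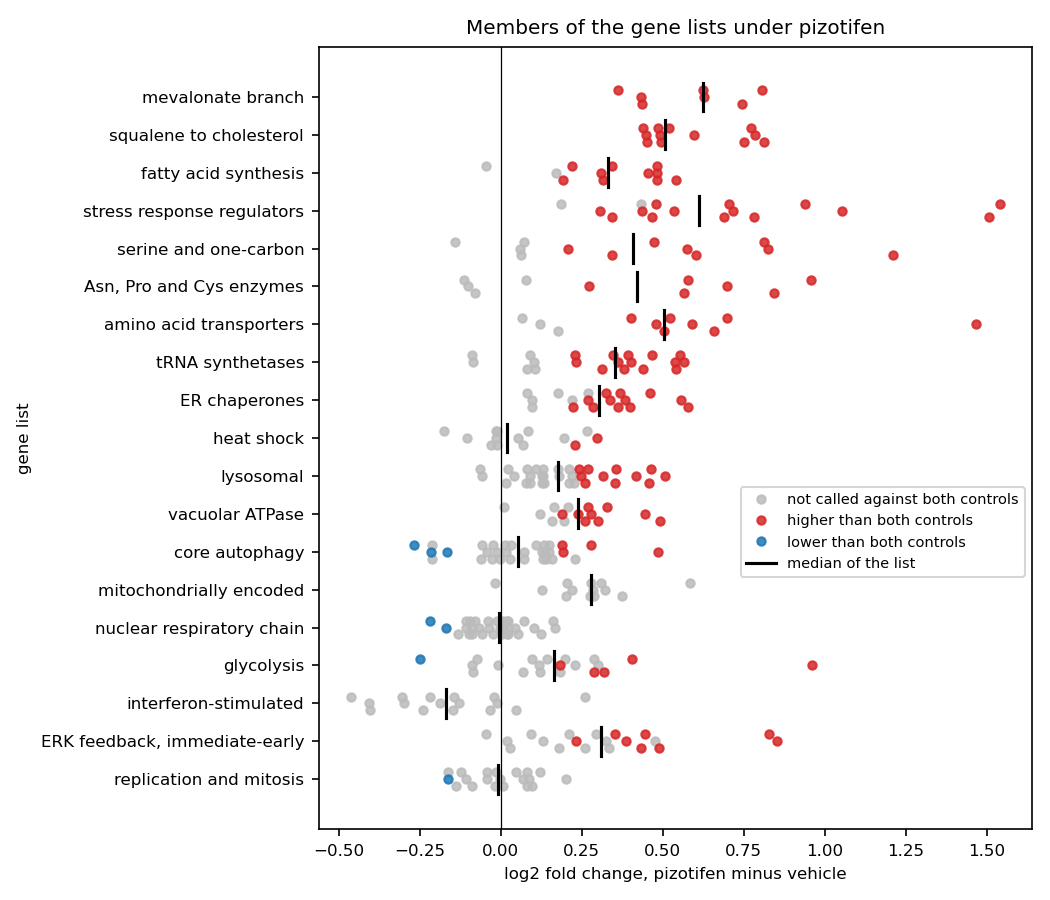
Each point is 1 gene, placed by its log2 difference of pizotifen from vehicle, with genes called against both controls in red where higher and blue where lower, and the bar is the median of the list. The sterol lists lie wholly above 0 with medians of 0.62 and 0.51, whereas the nuclear respiratory chain and replication lists centre near 0, at -0.01 each. The mitochondrially encoded list has a median of 0.28.

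Genes of oxidative phosphorylation showed little change. Of 32 nuclear subunits of the respiratory chain, 2 fell, a share near the 5.55% of all genes tested, and the median was -0.01 in both comparisons. Those that fell were the complex I gene Ndufs1 (-0.22 ± 0.05) and the complex II gene Sdha (-0.17 ± 0.04). None of the 13 mitochondrially encoded genes was called against both controls. Their median was 0.28 against vehicle and 0.06 against haloperidol, and haloperidol exceeded vehicle by 0.23.

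Of 20 glycolytic genes, 5 rose and 1 fell, with a median of 0.16 and 0.19. Over all genes tested, 6.41% rose and 5.55% fell. Without haloperidol replicate 2 the counts were 3 and 1, beside 5.48% and 4.46% of all genes. Hk2, the inducible hexokinase gene, was at 7.52, 7.42 and 7.33 under vehicle, 7.45, 7.44 and 7.26 under haloperidol and 8.39, 8.41 and 8.35 under pizotifen, a difference of 0.96 ± 0.14. The glucose transporter gene Slc2a1 was at 9.94, 10.17 and 10.38 under pizotifen and at most 9.87 in the controls, and its call ended with 4 of the 9 libraries left out in turn. Txnip, a glucose-induced arrestin that restrains glucose uptake, fell, from 10.56, 10.55 and 10.68 under vehicle to 9.79, 9.97 and 10.03, a difference of -0.67 ± 0.11. Arrdc4, its relative, fell by 0.27 on the log2 scale, a call that ended with 7 of the 9 libraries left out in turn. The list of 5 genes of glucose sensing that holds both had 1 rise, that of the transcription factor gene Mlx, and 3 falls, with a median of -0.25 and -0.19, and without haloperidol replicate 2 the fall of Mlxip, a partner of Mlx, was not called.

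Of 20 genes of ERK feedback and the immediate-early response, 8 rose and none fell, beside 6.41% and 5.55% of all genes tested. Their median was 0.31 against vehicle and 0.33 against haloperidol. Fosl1, the gene of FRA1, was at 7.21, 7.32 and 7.41 under vehicle, 7.44, 7.33 and 7.20 under haloperidol and 8.12, 8.20 and 8.10 under pizotifen, a difference of 0.83 ± 0.13. Dusp4, an ERK phosphatase, was at 4.67, 4.72 and 4.61 under vehicle and at 5.64, 5.49 and 5.42 under pizotifen, a difference of 0.85 ± 0.16. The phosphatase genes Dusp6 and Dusp5 rose by 0.49 and 0.43, and Myc by 0.35. The calls of Dusp5, Dusp6 and Myc ended with 5, 4 and 5 of the 9 libraries left out in turn. Fos was not called (0.21 ± 0.11, adjusted p = 0.182, limma).

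Among 14 genes of the BCL2 family and caspases, the pro-survival Mcl1 (0.20 ± 0.05) and the pro-apoptotic Pmaip1 (0.46 ± 0.08) rose, and the pro-apoptotic Bcl2l11 fell (-0.44 ± 0.08), with a median of 0.04 and 0.02. Of 20 replication and mitosis genes, the helicase subunit gene Mcm6 fell (-0.16 ± 0.05, not called without vehicle replicate 1, adjusted p = 0.0988, limma), with a median of -0.01 against vehicle and 0.03 against haloperidol. Beside the counts of this paragraph, 6.41% of all genes tested rose and 5.55% fell. Of 10 p53 targets, the nuclease gene Aen rose and Sesn1 fell, with medians that differed in sign, 0.07 and -0.0069, and without haloperidol replicate 2 Aen was not called. Of 16 interferon-stimulated genes none was called, with a median of -0.17 and -0.13. In 7 of them all 3 pizotifen samples lay below all controls, beside 13.3% of all genes tested. Ifit1, an RNA-binding effector, was at 12.40, 12.13 and 12.37 under vehicle and at 11.64, 12.06 and 11.98 under pizotifen (adjusted p = 0.158, limma).

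The list of 14 genes of the NRF2 antioxidant response includes the genes of NRF2 itself and of its inhibitor Keap1. Of these 14, Srxn1 (0.32 ± 0.07) and Gsr (0.17 ± 0.04) rose and Gstm1 fell, with a median of 0.05 and 0.03. Over all genes tested, 6.41% rose and 5.55% fell. Among 5 metallothionein and zinc genes, the zinc importer gene Slc39a10 rose (0.64 ± 0.18) and the metallothionein gene Mt2 fell (-0.57 ± 0.16), with a median of -0.17 and -0.11. Mt2 was not called without haloperidol replicate 2 (adjusted p = 0.0750, limma), and leaving out pizotifen replicate 2 or 3 or vehicle replicate 3 ended the calls of both genes. Of 15 clock genes, Bhlhe40 (0.64), Ciart (0.56), Hlf (0.37) and Cry1 (0.35) rose and Tef fell (-0.41), with a median of 0.03 and 0.00061. Collection times were matched only between pizotifen and haloperidol, against which these differences were 0.62, 0.58, 0.32, 0.39 and -0.37.

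Matrix genes were called in both directions. Of 18 collagens and matricellular genes, 3 rose and 4 fell, beside 6.41% and 5.55% of all genes tested. Their median was 0.02 against vehicle and -0.04 against haloperidol. Col6a1 and Col6a2, chains of the microfibril-forming collagen, fell by 0.51 each on the log2 scale, and Col1a2 by 0.31. Ctgf, a secreted target of YAP, was at 9.59, 9.72 and 9.57 under vehicle, 9.63, 9.98 and 9.62 under haloperidol and 10.63, 10.42 and 10.57 under pizotifen, a difference of 0.91 ± 0.17. Its relative Cyr61 rose by 0.48 and the collagen cross-linking enzyme gene Lox by 0.47, and the calls of Cyr61, Lox and Col1a2 ended with 7, 3 and 3 of the 9 libraries left out in turn, haloperidol replicate 2 among those of Cyr61. Slc1a3, a glutamate transporter gene used as an astrocyte marker, fell by 0.52 on the log2 scale. It was the 1 of 5 astrocyte markers tested that fell, and none rose.

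Genes of the receptors to which pizotifen is known to bind were hardly detected. Of 29 receptors, mostly of amines, 15 lay under the filter on low values and 8 were tested, with a median of -0.0088 and -0.0038. The serotonin receptor genes Htr2a and Htr2b were near -2.23 and -2.13 in all 9 samples. The histamine receptor gene Hrh1 was between 1.07 and 1.18 in the same samples. Of the receptors tested, Tmem97, described above, rose and no other did, while 6.41% of all genes tested rose.

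Htt, the gene of huntingtin, which carries the knock-in in this line, was at 8.10, 8.10 and 7.92 under vehicle, 7.99, 8.14 and 8.04 under haloperidol and 7.79, 7.72 and 7.66 under pizotifen. The pizotifen samples lay below all controls, and the difference was -0.32 ± 0.08 from vehicle (SE, adjusted p = 0.00291, limma) and -0.34 from haloperidol (adjusted p = 0.00218, limma), or -0.29 without haloperidol replicate 2. The files do not separate alleles or transcripts, and the gene (chr5:34761740-34912534, GRCm38, plus strand) overlaps Msantd1 on the same strand. Other conditions also lay below the same vehicle samples in Htt. The difference was -0.35 at 10 µM loxapine, -0.34 at 10 µM diacylglycerol kinase inhibitor II, -0.27 at 10 µM cyproheptadine, -0.24 at 10 µM meclizine, -0.32 at 250 µM cysteamine, -0.35 at 0.5 nM nicotinamide, -0.22 at 250 nM fingolimod phosphate and -0.21 at 1 nM nortriptyline. In the other 5 compounds, haloperidol among them, it ran from -0.19 to 0.02. The doses differ from that of pizotifen, and these values stand side by side without a test. In STHdhQ7 cells under vehicle Htt was 1.07 higher than in STHdhQ111.

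The genes that pizotifen changed were set beside the difference between the lines under vehicle, taking the pizotifen calls against haloperidol so that no sample was shared. Of the 1018 genes higher than haloperidol, 44.4% were called higher in STHdhQ7 than in STHdhQ111 and 22.1% lower, and of the 955 lower genes 28.6% were higher and 43.6% lower in STHdhQ7. Over all genes tested these shares were 29.2% and 26.6%. Without haloperidol replicate 2, of 813 higher genes (6.06% of those tested) 49.8% were higher and 18.5% lower in STHdhQ7, and of 687 lower genes (5.12%) 19.4% were higher and 51.5% lower. The genes are not independent, and no p-value is attached. Across all genes the difference of pizotifen from haloperidol and that of STHdhQ7 from STHdhQ111 had a Pearson correlation of -0.0091, and of 0.174 without haloperidol replicate 2.

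**Figure D5:**
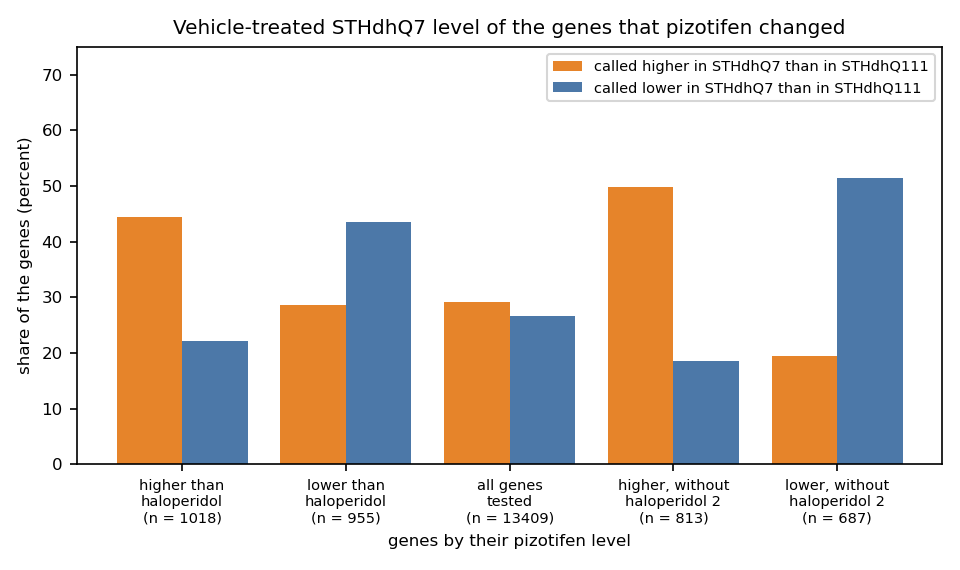
Bars give the percent of genes called higher (orange) or lower (blue) in vehicle-treated STHdhQ7 than in STHdhQ111 cells, for genes called higher or lower under pizotifen than under haloperidol and for all 13409 genes tested. Among genes higher under pizotifen 44.4% were higher in STHdhQ7, against 28.6% of the lower genes and 29.2% of all genes, and the last 2 pairs leave out haloperidol replicate 2.

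The profile of pizotifen against haloperidol was set beside those of the other compounds against vehicle, which share no sample with it. Across 13409 genes the Pearson correlation was 0.819 for cyproheptadine, 0.725 for loxapine, 0.567 for meclizine and 0.525 for diacylglycerol kinase inhibitor II, and at most 0.216 for the others. Without haloperidol replicate 2 the first 4 values were 0.841, 0.73, 0.575 and 0.535. These 4 compounds were given at 10 µM and pizotifen at 5 µM, so the values stand side by side and are not compared, and genes within a profile are not independent. The median difference from vehicle in the mevalonate list was 0.62 for pizotifen, 0.54 for cyproheptadine, 0.63 for loxapine, -0.11 for meclizine and -0.75 for the kinase inhibitor. In the stress response list the medians were 0.61, 0.90, 0.55, 1.09 and 1.31 in the same order.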

How the data were processed

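RNA was poly(A)-selected and sequenced as directional single-end 50-base reads. The authors aligned reads, after trimming in Trimmomatic 0.36, to the GENCODE M12 transcriptome of GRCm38.p5. RSEM gave the gene estimates, DESeq2 was used for normalization, and the authors deposited log2 normalized abundances, whose transformation is not named. From these values, with no pseudocount, limma 3.58.1 (R 4.3.3) fitted 16 conditions and the collection day over 48 samples, with 30 residual degrees of freedom, an intensity trend and Benjamini-Hochberg adjustment over 13409 genes with a symbol and a mean of at least 1. Calls had an adjusted p under 0.05. The fit was tested on simulated data.

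The members and gene lists were chosen with earlier results of these data known, and 4 genes of the lists are not reported here or counted in them. Genes were named by rule: the 10 largest rises and 10 largest falls, by the mean of both differences, called against both controls, with a mean of at least 5 and no overlap of the samples, the 4 vehicle calls with the largest haloperidol difference, and members of the lists. Replicate numbers follow the collection days in most groups, and the day is in the model. Same-numbered pizotifen and vehicle samples had correlated deviations of 0.198, -0.162 and 0.097, so the numbers alone were not taken as pairs. Promoters came from RefSeq. Alternatives changed the filter, scaling, covariates, samples or control.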

Additional observations from a re-analysis of the deposited data

How the results depend on the processing

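The 256 differences of named genes and the counts were recomputed under each alternative. None of the 226 called differences turned its direction, and 169 of them stayed called throughout. Leaving out 1 library at a time gave 1376 to 2376 calls against vehicle, 1275 to 2005 against haloperidol, 0 to 34 for haloperidol against vehicle, 1077 to 1456 against both controls and 6849 to 7470 between the lines, with fewer samples in each such fit. Without the minimum mean, 1 gene was called for haloperidol against vehicle. Added collection time gave 2147 calls against vehicle, and fingolimod phosphate joined to haloperidol as control gave 2316.

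With the replicate block in place of the collection day there were 2433 calls against vehicle, 2014 against haloperidol, 0 between these controls, 1636 against both controls and 7496 between the lines.

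Medians near 0 changed sign, each with 1 library left out. The median against haloperidol ran from -0.0092 to 0.038 for the heat shock list, from -0.0034 to 0.15 for the mitochondrially encoded genes, from -0.0061 to 0.026 for the replication list, which was -0.0045 after quantile normalization, from -0.24 to 0.029 for the metallothionein list, from -0.045 to 0.025 for the nuclear respiratory list, from -0.048 to 0.038 for the p53 targets and from -0.0085 to 0.056 for the BCL2 list. Against vehicle it ran from -0.0037 to 0.057 for the BCL2 list, from -0.042 to 0.063 for the clock list, from -0.040 to 0.042 for the nuclear respiratory list and from -0.021 to 0.015 for the replication list. Over all alternatives the median against vehicle ran from -0.048 to 0.033 for the collagens, lowest after quantile normalization, and from -0.13 to 0.031 for the imprinted genes, lowest at a minimum mean of 5. The receptor medians ran from -0.010 to 0.23 against vehicle and from -0.015 to 0.18 against haloperidol, highest at that minimum, and the clock median against haloperidol from -0.014 to 0.044. Uncalled differences did so too. Srebf1 ran from -0.041 to 0.096 against vehicle and from -0.040 to 0.096 against haloperidol, Acaca from -0.11 to 0.019 against vehicle and from -0.0033 to 0.13 against haloperidol, and Map1lc3b from -0.063 to 0.042 against vehicle. Against haloperidol Mthfd1 ran from -0.018 to 0.10, ND4L from -0.0034 to 0.37 and Rps15a-ps5 from -0.14 to 0.047. The cause was not tested.

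Depth is unknown, so low genes carry an unmeasured counting error. The log2 scale of the deposited values shrinks differences of low genes where it is a regularized logarithm, which is not stated.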
